A study of Oryza sativa with 12 samples.

Results

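The genes described here are 8 rice genes that bring ammonium into the plant and fix it into glutamine: the ammonium transporter genes AMT1-1, AMT1-2, AMT1-3 and AMT2-1, and the glutamine synthetase genes GLN1-1, GLN1-2, GLN1-3 and GLN2. They were taken as the rows with these gene names, and each name had 1 row among the 112071 features listed. RNA was sequenced from 14-day-old rice seedlings of the cultivar ZH11, in 4 groups of 3 libraries. The genotypes were wild type and a mutant with the label PKG-/-, called pkg here, in the gene for a cGMP-dependent protein kinase. Each was left untreated (control) or received the cyclic GMP analogue Br-cGMP at 10 µM during 5 h. All 4 groups share the cultivar, the age and growth on MS medium. Neither the altered stretch of PKG nor the number of lines is stated, and the genotype was not checked here. The series calls the libraries biological repetitions, and p-values measure the spread between them.

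Ammonium enters root cells through membrane channels of the AMT family and is joined to glutamate by glutamine synthetase. Rice has cytosolic glutamine synthetases, of which GLN1-1 is known as the shoot form and GLN1-2 as the root form, and a plastid form, GLN2, which in leaves recaptures the ammonium that photorespiration releases. AMT1-1 is known from both roots and shoots, AMT1-2 and AMT1-3 chiefly from roots, and AMT2-1 belongs to a separate branch of the family. The label names seedlings and no organ, so RNA of roots and shoots may be mixed, and fewer cells of a type and less RNA per cell cannot be told apart.

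Levels are given in FPKM, which divides reads by the listed length of a feature and by depth. Between genes they are set side by side as listed values only, since how reads at shared loci were counted is not known. Reads assigned to features, recovered from the FPKM, numbered 6667261 to 9438909 per library. Replicate 3 stood apart in 3 groups. The silicon efflux transporter gene LSI2, a root gene, had 0.196 FPKM in the wild type control, 0 in the pkg control and 0.181 in pkg with Br-cGMP, whereas the remaining 9 libraries ranged from 41.7 to 452. The root marker NIP2-1 was at 15.3, 6.91 and 13.3 FPKM there and at 117 to 1307 elsewhere. PIP2-3 and PIP2-4 were lowest there too. Other root markers did not all follow: PHT1-8 was at 16.5, 27.6 and 56.9 FPKM (median of 12 libraries 28.5). IRT1 was at 0.678, 2.64 and 0.627 (median 1.26) and NRAMP5 at 15.7, 3.54 and 1.25 (median 15.6). The name low in root genes, used below, rests on LSI2 and NIP2-1. Of 12 root markers listed, 8 had a row and none of these was at 0 in all libraries; their summed level (FPKM) ranged over 48.8 to 809 for the wild type control, 42.1 to 670 for the pkg control, 873 to 1512 for treated wild type and 72.5 to 1949 for treated pkg. Of 9 markers of green tissue, 5 had a row, and their summed level was 703 to 1624, 738 to 4848, 612 to 1469 and 1217 to 2416 FPKM in the same order; the chlorophyll-binding protein genes CAB1R and CAB2R were at 0 in all 12 libraries. Beside the differences that leaving out these 3 libraries moved by over 1.5 times, and those between groups without overlap, the value without them is given, and the part of tissue make-up was not tested.

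Overlapping added features or opposite-strand genes were found at the loci of 6 of the 8 genes, which bears on how their values can be read. GLN1-2 (OS03G0223400, chromosome 3, 6457915 to 6462146, minus strand) was listed at 0 in 11 libraries and held 1 read in wild type Br-cGMP 3. Its whole span lies inside an added feature on the same strand (chromosome 3, 6457885 to 6462197), one of 20399 that the files list beside the reference genes, and that feature too held 1 read in all. GLN2 (OS04G0659100, chromosome 4, 33624428 to 33631025, minus strand) held 6 to 32 reads per library. It also lies wholly inside a same-strand added feature (chromosome 4, 33624428 to 33631590), which held 3 to 13. GLN1-1 (OS02G0735200, chromosome 2, 30674780 to 30678659, minus strand) held 2363 to 5837 reads. Neither it nor GLN1-3 (OS03G0712800, chromosome 3, 28822424 to 28826321, minus strand) overlaps an added feature or an opposite-strand reference gene. Overlap was sought only with added features on both strands and with reference genes on the opposite strand. The 53216 features with EPlOSAG identifiers, the 626 with ENSRNA identifiers and reference genes on the same strand were not searched. No source used here gives the genome build.

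The 4 transporter genes overlap genes annotated on the opposite strand. AMT1-1 (OS04G0509600, chromosome 4, 25500515 to 25502557, plus strand) is covered over 71.5% of its span, AMT1-2 (OS02G0620600, chromosome 2, 24690884 to 24692736, plus strand) over 83.2%, AMT1-3 (OS02G0620500, chromosome 2, 24683709 to 24685205, plus strand) over 97.0%, and AMT2-1 (OS05G0468700, chromosome 5, 23009282 to 23013425, plus strand) over 86.6%. Those opposite-strand genes held at most 11 reads in any library. Whether strand was used in counting is not given, so reads of AMT genes and of these partners cannot be told apart. AMT1-2 and AMT1-3 are neighbours, and the RefSeq gene table (assembly ASM3414082v1) lists both names as synonyms of 2 genes, so a role known for either name cannot be tied to a single row.

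Over the reference genes with a symbol, low values were more frequent in such positions. Of 737 genes covered over at least 95% by a same-strand added feature, 63.9% were listed at 0 in all libraries and 87.2% had a mean below 1 FPKM. Of 816 genes with no overlapping feature of the kinds searched, 3.92% were at 0 and 20.0% below 1 FPKM. Of 230 genes with no same-strand added feature but at least 70% covered on the opposite strand, 9.57% were at 0 and 46.1% below 1 FPKM; these classes and their limits were chosen after the members' values were seen. A low value of GLN1-2 or GLN2 is therefore reported as listed and not as low expression, and how reads shared between features were counted was not tested.

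**Figure D1:**
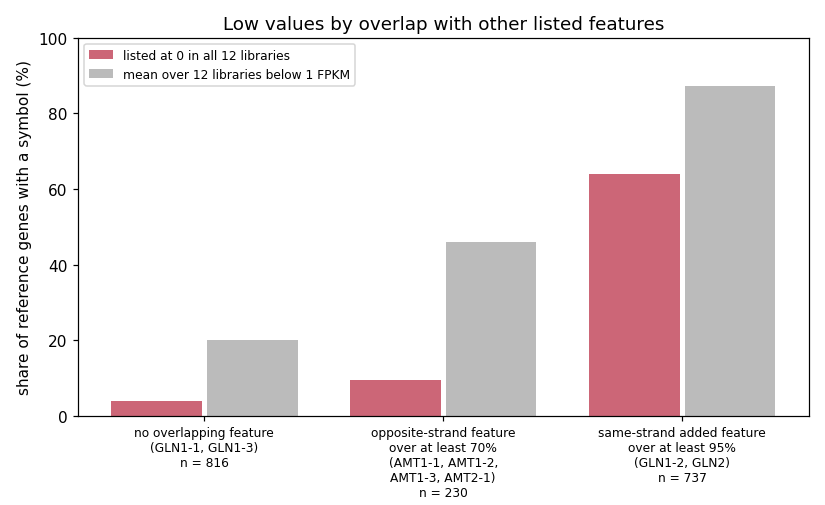
Share of reference genes with a symbol (y axis, %) that were listed at 0 in all 12 libraries (red bars) or had a mean below 1 FPKM (grey bars), for 3 kinds of overlap with other listed features (x axis, with the members in each). Genes inside a same-strand added feature, where GLN1-2 and GLN2 lie, were at 0 in 63.9% of cases. Genes with no overlap of the kinds searched were at 0 in 3.92% of cases.

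The order of mean listed levels over the 12 libraries was GLN1-1, AMT2-1, AMT1-1, GLN1-3, AMT1-2, GLN2, AMT1-3 and GLN1-2. All but GLN1-1 and GLN1-3 overlap other features of the kinds searched, so this order need not be that of expression. GLN1-1 stood at 242 ± 73.6 FPKM (SD, n = 12) and exceeded AMT2-1 in all 12 libraries, by 10.2 to 56.6 times. AMT2-1 at 10.1 ± 4.07 FPKM and AMT1-1 at 9.88 ± 5.09 FPKM were not separated, since AMT2-1 was the higher in 6 of 12 libraries. AMT1-1 exceeded GLN1-3 (1.64 ± 1.38 FPKM) in all 12. Below that the order did not hold from library to library: GLN1-3 exceeded AMT1-2 in 8 of 12, and AMT1-2 exceeded GLN2 (0.928 ± 0.350 FPKM) in 6 of 12. AMT1-3 held 9 reads and GLN1-2 1 read over all libraries.

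**Figure D2:**
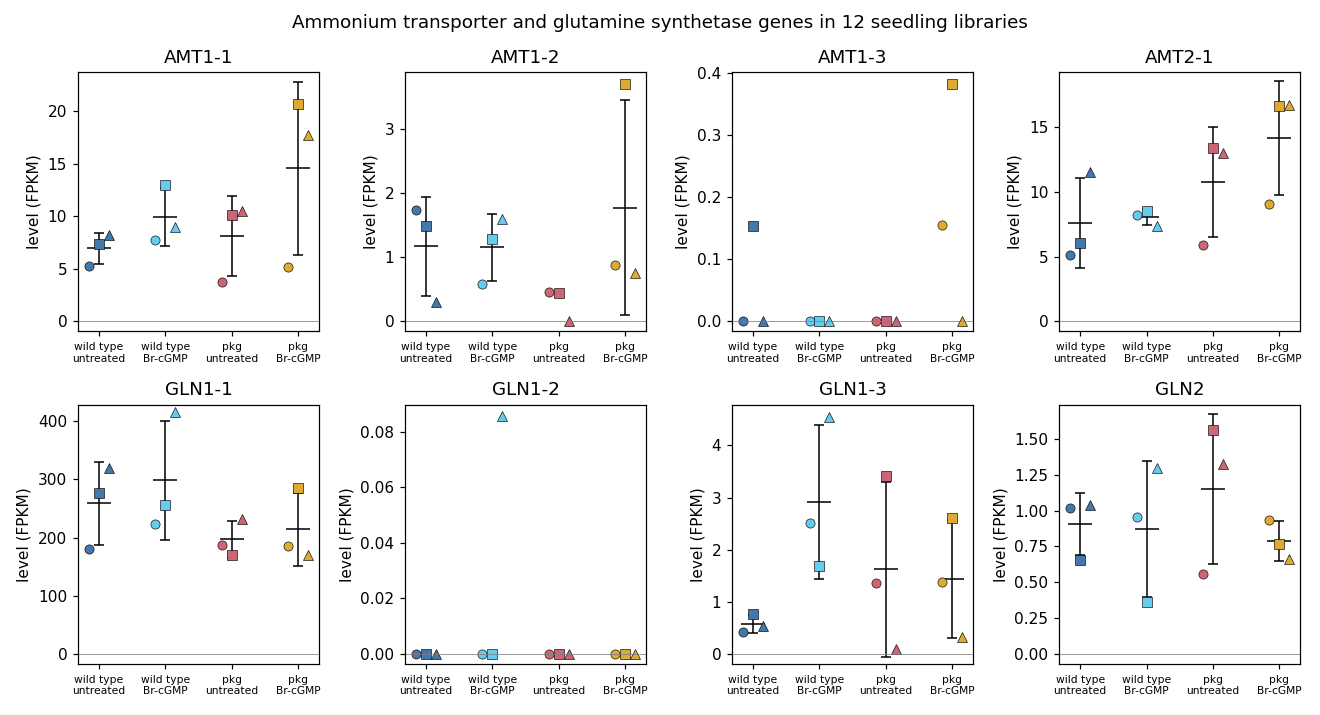
Level of each of the 8 genes (y axis, FPKM, a separate scale for each gene) in the 12 libraries by group (x axis); circles, squares and triangles are replicates 1, 2 and 3, and the bar and whiskers are the mean and SD of 3 libraries, left out where a library was at 0. GLN1-1 lay between 170 and 415 FPKM, AMT1-1 and AMT2-1 between 3.70 and 20.7, and the other genes below 5.

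AMT1-1, a plasma membrane ammonium transporter gene, was at 5.28, 7.38 and 8.19 FPKM in wild type control and at 7.72, 13.0 and 9.02 FPKM in wild type Br-cGMP. In pkg it was at 3.70, 10.1 and 10.5 FPKM without the nucleotide and at 5.20, 20.7 and 17.7 FPKM with it. The groups overlapped in every comparison. The highest 2 values were both in pkg Br-cGMP, but its replicate 1 lay below all 3 libraries of wild type Br-cGMP. In pkg, where same-numbered libraries deviated together, the treated library exceeded its untreated counterpart by 0.40, 0.97 and 0.70 in log2(FPKM + 1). The share of all features that were higher in every pkg pair was not counted. AMT2-1 and AMT1-2 were also higher in every pkg pair (0.36, 1.71 and 0.80 for AMT1-2). GLN1-1 (-0.018, 0.74 and -0.44), GLN1-3 (0.022, -0.29 and 0.28) and GLN2 (0.31, -0.54 and -0.49) were not. In wild type, where libraries share only a number, the differences of AMT1-1 were 0.47, 0.74 and 0.12 on the log2(FPKM + 1) scale. On that scale the mean response of AMT1-1 was 0.69 ± 0.49 (SE) in pkg (adjusted p = 1, limma) and 0.45 ± 0.49 in wild type (adjusted p = 0.925), and the difference between these responses was 0.24 ± 0.70 (adjusted p = 1). Single libraries moved the pkg response of AMT1-1: it was 0.27 without pkg control 1, 0.35 and 0.46 without pkg Br-cGMP 2 and 3, and 1.26 without pkg Br-cGMP 1. The wild type response was 0.29 without wild type control 1 and 0.25 without wild type Br-cGMP 2. Without the 3 libraries low in root genes the difference between responses was 0.12.

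AMT2-1 moved with AMT1-1 between libraries. Its levels were 5.13, 6.06 and 11.5 FPKM in wild type control, 8.20, 8.54 and 7.34 in treated wild type, 5.88, 13.4 and 13.0 in pkg control and 9.09, 16.7 and 16.7 in pkg Br-cGMP. Under Br-cGMP the 3 pkg libraries lay above the 3 wild type libraries, with no overlap, as did 6.65% of the 25238 features tested. The difference was 0.70 ± 0.37 with a 95% interval from -0.12 to 1.53 (unadjusted p = 0.0868, adjusted p = 0.598, limma). The adjusted p ranged from 0.301 to 0.940 over the alternatives. Without Br-cGMP the genotypes overlapped (0.45 ± 0.37, adjusted p = 0.947), and leaving out single libraries gave 0.25 (wild type control 1) to 0.80 (pkg control 1). For AMT2-1 the treated minus the untreated library of the same number gave 0.55, 0.29 and 0.34 in pkg, and 0.59, 0.44 and -0.59 in wild type. The mean pkg response was 0.39 ± 0.37 (adjusted p = 1, limma), 0.045 without pkg control 1, 0.26 without pkg Br-cGMP 2 or 3 and 0.66 without pkg Br-cGMP 1. In wild type it was 0.14 ± 0.37 (adjusted p = 0.972), and 0.45 ± 0.38 without the 3 libraries low in root genes, of which wild type control 3 held the highest wild type value. The Pearson correlation of AMT1-1 with AMT2-1 was 0.80 over 12 libraries and 0.77 over the 9 libraries not low in root genes; the genes share the libraries and their scaling, and both lie opposite another gene.

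**Figure D3:**
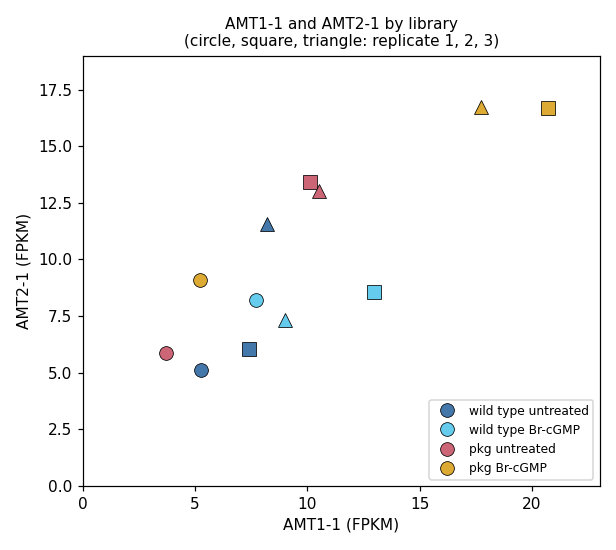
Level of AMT1-1 (x axis, FPKM) against AMT2-1 (y axis, FPKM) in each of the 12 libraries; colours are the groups, and circles, squares and triangles are replicates 1, 2 and 3. Within pkg, replicate 1 lies low on both axes in each treatment and replicates 2 and 3 lie high.

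In the 3 libraries low in root genes, AMT1-1 and AMT2-1 were not low. AMT2-1 ranked 5, 4 and 1 of 12 there (wild type control 3, pkg control 3 and pkg Br-cGMP 3), and AMT1-1 ranked 7, 4 and 2. RBCS, the gene of the small Rubisco subunit of green tissue, ranked 5, 1 and 4 in the same libraries. Without them the AMT2-1 difference under Br-cGMP was 0.57 ± 0.38 (adjusted p = 0.926), and the share of root and shoot in these levels was not tested.

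AMT1-2 rested on 0 to 60 reads per library. It was at 1.73, 1.49 and 0.294 FPKM in wild type control, at 0.577, 1.29 and 1.60 in treated wild type, at 0.460 and 0.441 and listed at 0 in pkg control, and at 0.872, 3.70 and 0.747 in pkg Br-cGMP. All 3 treated pkg libraries lay above the 3 untreated ones, as did 2.71% of features tested. The difference was 0.96 ± 0.44 with a 95% interval from -0.016 to 1.93 (unadjusted p = 0.0532, adjusted p = 1, limma). It was 0.33 with a pseudocount of 5, 2.23 with a pseudocount of 0.1 and 2.68 by limma-voom, and 0.50 without pkg Br-cGMP 2, the library at 3.70 FPKM. The libraries low in root genes were ranked 11, 12 and 7 of 12 for AMT1-2, and without them the difference was 1.03 ± 0.47 (adjusted p = 1). In wild type the response was 0.032 ± 0.44, and -0.31 ± 0.43 without those libraries.

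AMT1-3 was listed at 0 in 9 libraries. It held 2 reads in wild type control 2, 2 in pkg Br-cGMP 1 and 5 in pkg Br-cGMP 2. It stayed below the level needed for testing, 1 FPKM in at least 3 libraries, and no comparison was made.

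GLN1-1, the cytosolic synthetase gene known from shoots, carried most of the glutamine synthetase reads assigned in these seedlings. It was at 181, 276 and 319 FPKM in wild type control and at 223, 256 and 415 FPKM in wild type Br-cGMP. In pkg it was at 188, 170 and 232 FPKM without and at 186, 285 and 171 FPKM with the nucleotide. All 4 groups overlapped. The response was 0.19 ± 0.30 in wild type (95% interval -0.48 to 0.87, adjusted p = 0.950, limma) and 0.095 ± 0.30 in pkg (-0.58 to 0.77, adjusted p = 1). Without the 3 libraries low in root genes both responses were 0.36, with SEs of 0.35 and 0.38 (adjusted p = 0.957 and 1, limma). The difference of pkg from wild type was -0.37 ± 0.30 on the log2 scale without Br-cGMP (197 ± 31.6 against 259 ± 70.8 FPKM, SD, adjusted p = 0.947, limma) and -0.46 ± 0.30 with it (214 ± 62.2 against 298 ± 103 FPKM, adjusted p = 0.686), and neither passed the test. Leaving out single libraries gave -0.60 (wild type control 1) to -0.19 (wild type control 3) for the untreated genotypes, and -0.69 to -0.20 for the treated ones, the last without wild type Br-cGMP 3, the library at 415 FPKM.

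GLN1-3, a cytosolic synthetase gene known from developing rice grains, had the smallest unadjusted p of the members. It was at 0.429, 0.769 and 0.546 FPKM in wild type control, from 6 to 10 reads, and at 2.50, 1.68 and 4.55 FPKM in wild type Br-cGMP, from 20 to 55 reads. The groups did not overlap, and 8.88% of all features tested were likewise higher after treatment without overlap. The difference was 1.25 ± 0.52 with a 95% interval from 0.098 to 2.39 (unadjusted p = 0.0360, adjusted p = 0.882, limma), where 5.33% of all features had an unadjusted p under 0.05. It was 0.49 with a pseudocount of 5, 2.06 with a pseudocount of 0.1, 2.18 by limma-voom, and 1.23 ± 0.43 without the libraries low in root genes; over the alternatives the adjusted p ranged from 0.612 to 1. In pkg the levels were 1.35, 3.42 and 0.103 FPKM without and 1.39, 2.60 and 0.337 FPKM with the nucleotide, a difference of 0.0015 ± 0.52, or -0.14 ± 0.47 without those libraries. The difference between the responses was -1.24 ± 0.73 (unadjusted p = 0.119, adjusted p = 1), and -0.76 without pkg control 2. In both pkg groups the lowest value was that of replicate 3, a library low in root genes.

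GLN2, the plastid synthetase gene, was at 1.02, 0.659 and 1.04 FPKM in wild type control, 0.956, 0.360 and 1.30 in treated wild type, 0.559, 1.56 and 1.33 in pkg control and 0.936, 0.764 and 0.660 in pkg Br-cGMP. The groups overlapped throughout. The largest difference in size was -0.24 ± 0.28, the response in pkg (95% interval -0.86 to 0.39, adjusted p = 1, limma). It was -0.11 without the 3 libraries low in root genes, -0.45 without pkg control 1 and -0.095 without pkg control 2.

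The shoot, root and plastid enzymes could be compared within libraries only for GLN1-1 and GLN2. The GLN2 level as a share of that of GLN1-1 ranged over 0.239% to 0.564% for untreated wild type, 0.297% to 0.916% for untreated pkg, 0.140% to 0.429% for treated wild type and 0.268% to 0.504% for treated pkg. The log2 ratio was -8.15 ± 0.63, -7.54 ± 0.82, -8.55 ± 0.83 and -8.06 ± 0.46 (SD, n = 3) in that order. It was lower under Br-cGMP by a mean of -0.47 (two-sided exact permutation test within genotype, p = 0.240) and differed by 0.55 between pkg and wild type (exact permutation test within treatment, p = 0.185); adjusted over these 2 tests both gave p = 0.240, and the smallest p the design allows is 0.005. These ratios compare listed values, of which that of GLN2 comes from a locus covered by an added feature. Ratios with GLN1-2 have no value, as it was listed at 0 in 11 of 12 libraries.

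Over the members as a whole, 6 of 8 could be tested and 0 passed in any of the 5 comparisons. The share of all 25238 features past the limma threshold (adjusted p under 0.05) was 0% for Br-cGMP in wild type, 0% for Br-cGMP in pkg, 0.341% for pkg against wild type without Br-cGMP, 0.341% with it and 0.00396% for the difference between the responses. By limma-voom on recovered reads 0 members passed as well. The groups did not overlap for 1 of 6 members in the wild type response (GLN1-3, higher, where 8.88% of all features were higher and 4.86% lower without overlap), for 1 of 6 in the pkg response (AMT1-2, higher, 2.71% and 2.41%), for 0 of 6 between untreated genotypes (5.27% and 5.44%) and for 1 of 6 between treated genotypes (AMT2-1, higher, 6.65% and 6.65%). At an unadjusted p under 0.05 there was 1 member, GLN1-3, in the wild type response, and 0 in the other 4 comparisons, where 2.71%, 5.22%, 9.47% and 2.07% of all features had such a p. The median difference of the 6 members was 0.17 in the wild type response and 0.24 in the pkg response, against -0.0079 and -0.011 for all features. In each, 5 of 6 members lay above 0, as did 48.6% and 48.3% of all features. Of those members, GLN1-1, AMT2-1 and AMT1-2 changed sign in the wild type response when single libraries were left out. GLN1-1 and GLN1-3 did so in the pkg response. Between genotypes the median was 0.13 without and 0.10 with Br-cGMP, against -0.0075 and -0.020. There 4 of 6 and 3 of 6 members lay above 0, beside 49.0% and 48.0% of all features. The comparisons share libraries, so these values are not independent of each other.

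**Figure D4:**
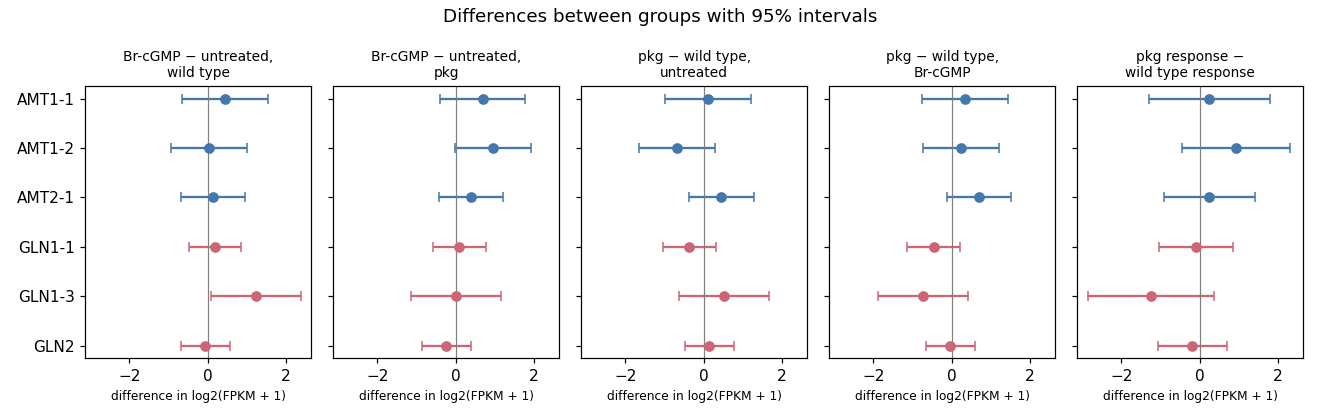
Difference between groups in log2(FPKM + 1) (x axis) for the 6 genes tested (y axis) in 5 comparisons, with 95% intervals from limma; transporters are blue and synthetases red. Of the 30 intervals, that of GLN1-3 in the wild type response is the only one that does not reach 0, before any adjustment for the number of features.

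Other genes of nitrogen uptake and assimilation were taken from a list of 23 symbols, of which 11 had a row, in 12 rows. Only 4 could be tested, and 0 of 4 passed in either direction in any comparison. GDH2, a glutamate dehydrogenase gene, whose enzyme releases or binds ammonium in mitochondria, was at 37.6, 36.4 and 16.1 FPKM in wild type control and at 64.8, 55.8 and 62.8 FPKM in wild type Br-cGMP. These groups did not overlap, and 8.88% of all features tested were likewise higher without overlap. The lowest value, 16.1 FPKM, was that of wild type control 3, a library low in root genes. The difference was 1.09 ± 0.34 (unadjusted p = 0.00901, adjusted p = 0.882, limma), where 5.33% of all features had an unadjusted p under 0.05. Without the 3 libraries low in root genes it was 0.71 ± 0.28 (adjusted p = 0.957). In pkg it was at 23.3, 38.3 and 19.7 FPKM without and 31.3, 47.6 and 35.6 FPKM with the nucleotide (0.51 ± 0.34, adjusted p = 1; 0.36 ± 0.31 without those libraries). Its paralog GDH1 stood at 0.99 ± 0.48 in the wild type response (adjusted p = 0.882), or 0.47 ± 0.36 without those libraries, and at -0.14 ± 0.48 in the pkg response (adjusted p = 1). GDH1 is covered over 100% by an added feature on the same strand.

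NAR2.2, which encodes a partner protein of nitrate transporters, was at 9.01, 13.8 and 25.4 FPKM in wild type control and 1.34, 3.99 and 11.5 FPKM in pkg control, groups that overlapped (-1.58 ± 0.67, unadjusted p = 0.0395, adjusted p = 0.929, limma). In pkg Br-cGMP it was at 6.25, 29.3 and 15.8 FPKM (response 1.55 ± 0.67, adjusted p = 1). Without the libraries low in root genes these differences were -1.83 ± 0.72 (adjusted p = 0.903, limma) and 2.12 ± 0.72 (adjusted p = 1), and without pkg control 1 they were -0.996 and 0.97. The untreated pkg libraries serve in both values. The ammonium transporter gene AMT3-2 lay between 0.457 and 3.26 FPKM, and its response was 0.36 ± 0.40 for wild type (adjusted p = 0.926, limma; 0.14 without the libraries low in root genes) and 0.35 ± 0.40 for pkg (adjusted p = 1). AMT3-2 is covered over 100% by a feature on the opposite strand, so the limit given for the 4 AMT members holds for it too. Glutamate synthase is not analysed here, as none of its symbols searched for matched a row.

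The genes whose levels were most like those of a member over the 12 libraries were sought among 1133 tested genes with a symbol, by the Pearson correlation of log2(FPKM + 1), given as a description of libraries that share scaling and groups. For AMT2-1 these were RUB1 (a ubiquitin-like modifier), CYP76M7 (a cytochrome P450 of phytoalexin synthesis) and LOG (an enzyme of cytokinin activation), all at r = 0.93. For AMT1-1 they were the protein kinase gene MPK6 at 0.92, the germin-like gene GER7 at 0.90 and CHMP1 at 0.89. For GLN1-1 they were UGD3 at 0.86, the copper transporter gene COPT5.1 at 0.84 and SAP4 at 0.82. GLN1-3 was most like ABCG35 and RASI at 0.88 and the sugar transporter gene SWEET12 at 0.86; in the 9 libraries not low in root genes these values were 0.80, 0.77 and 0.75. AMT1-2 was most like SDH3-2 at 0.87, USP at 0.85 and GAP1 at 0.85. GLN2 was most like SWEET6B at 0.74, GLU15 at 0.73 and PEX11-1 at 0.70.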

How the data were processed

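CASAVA 1.8 and HISAT2 are named for the 12 libraries, per the submitters' processing notes. No source used here names the counting program or the build. The unit of the deposited values is unlabelled and was taken to be FPKM, since multiplying by gene length gave whole multiples of 1 step in each library for 100% of values above 0 (tolerance 0.01), from which reads were recovered. Groups and replicate numbers come from sample titles. limma 3.58.1 (R 4.3.3) was run on log2(FPKM + 1) with 4 group means over all 12 libraries, with trended and robust moderation, on features that reached 1 FPKM in 3 or more libraries, with Benjamini-Hochberg adjustment over all of them and a threshold of 0.05. Python 3.11.15, pandas 2.3.3, scipy 1.17.1 and matplotlib 3.10.9 were used for the rest. The limma procedure was also run on simulated data, with changes put into features with a mean of 5 FPKM or more. Those changes were larger than the member differences given here on the log2(FPKM + 1) scale. That run therefore does not show what size of change could be found for the members. The members, lists and tests were chosen with earlier results of these data known; of the list of nitrogen genes, AMT4-1 was added after the files were opened. The text names all members, gives values for the 4 other nitrogen genes that could be tested, and names, for each tested member, the 3 most similar genes with a symbol. The genes named as listed at 0 were chosen after their values were seen. Libraries of a group differed by a chi-square per degree of freedom of 18.4 to 65.9, so none repeats another. Same-numbered pkg libraries with and without Br-cGMP deviated together (correlations of 0.305 to 0.356 in all 3 pairs, from the data alone), and were read as pairs. The other groups were not read as pairs. Their same-numbered libraries correlated at -0.025 to 0.073 in wild type and at -0.15 to 0.41 between genotypes, the highest being replicate 3 without Br-cGMP. Differences by pair are given for the 6 tested members, but the SEs, intervals and p-values printed for pkg responses come from fits without pairs. Over the alternatives, the replicate block among them, the lowest adjusted p (limma) of the pkg response was 0.502 for AMT1-1 and 0.725 for AMT2-1.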

Additional observations from a re-analysis of the deposited data

How the results depend on the processing

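The count of 0 members past the threshold held in all 5 comparisons under every alternative run: filter, pseudocount, scaling, limma-voom, groups in the fit, replicate block, reference genes alone, and leaving out libraries. Of 549 alternative values of the 30 member comparisons, 512 kept their direction and 37 reversed; 18 of the 30 never reversed. Without the 3 libraries low in root genes, reversed values were -0.31 for AMT1-2 in the wild type response, -0.14 for GLN1-3 in the pkg response, -0.0054 for AMT1-1 between untreated genotypes, 0.015 for GLN2 between treated genotypes and -0.032 for the AMT2-1 difference between responses. The GLN1-3 pkg response was also -0.025 with a pseudocount of 5, -0.029 scaled by the sum and -0.066 by the upper quartile, and GLN2 between treated genotypes was 0.0012 with a pseudocount of 0.1 and 0.021 by limma-voom. Leaving out single libraries, the values that changed sign ranged in the wild type response from -0.074 to 0.37 (GLN1-1), -0.062 to 0.45 (AMT2-1), -0.31 to 0.24 (AMT1-2) and -0.22 to 0.16 (GLN2), in the pkg response from -0.13 to 0.24 (GLN1-1) and -0.51 to 0.49 (GLN1-3), between untreated genotypes from -0.12 to 0.53 (AMT1-1), between treated genotypes from -0.22 to 0.49 (AMT1-2) and -0.25 to 0.13 (GLN2), and between responses from -0.32 to 0.17 (GLN1-1), -0.099 to 0.52 (AMT2-1) and -0.18 to 0.81 (AMT1-1). Among other nitrogen genes the GDH1 pkg response ranged from -0.45 to 0.12. The log2 ratio of GLN2 to GLN1-1 ranged from -0.68 to -0.24 for treatment and from 0.32 to 0.76 for genotype when single libraries were left out, and kept its direction. The tests of ratios with GLN1-2 were not run, as the ratio has no value.

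Counts over all features moved more, and the cause was not tested. In the wild type response 0 became 5 with no filter, 2 with a pseudocount of 0.1 and 1 with 5, and 0 to 1 without single libraries; in the pkg response 0 to 2. Between untreated genotypes 86 became 51 with a filter of 5 FPKM, 38 with only the groups compared, 12 with reference genes alone, 31 without the 3 libraries and 50 to 74 without single libraries; between treated genotypes 40, 36, 8, 34 and 55 to 200, and 54 with a pseudocount of 5. For the difference between responses 1 became 2 with no filter or a pseudocount of 0.1, 0 with a filter of 5 FPKM, a pseudocount of 5, limma-voom, reference genes alone or without the 3 libraries, and 1 to 3 without single libraries. With the replicate block, 81 and 80 features were called between genotypes, and 0 with the block and only the groups compared, a setting chosen after seeing the data, as was reference genes alone. The block changed no call of a member. Same-numbered libraries of other groups correlated at -0.025 to 0.073 in wild type and at -0.15 to 0.41 between genotypes. GLN2, GLN1-3 and AMT1-2 rest on 60 reads or fewer per library, which limits their precision.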

Other observations

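Beside GLN1-2, other genes of nitrogen assimilation and of leaves were listed at 0 at loci of the same kind. The nitrate reductase gene NIA1 and the ammonium transporter genes AMT3-1 and AMT3-3 were at 0 in all 12 libraries, and each is covered over at least 95% by an added feature on the same strand; these are the 3 rows at 0 among the 12 rows of the nitrogen list. The chlorophyll-binding protein genes CAB1R and CAB2R were also at 0, with same-strand cover of 100% and 94.996%, the second just under the 95% limit. PPDK1, a pyruvate dikinase gene, was at 0.0376 FPKM or less under full cover. Cover did not go with a value of 0 in every case: GDH1 is covered over 100% and was at 2.27 to 15.1 FPKM. The root marker PIP2-4, also covered over 100%, was at 0.104 to 24.7 FPKM. Of 737 covered genes with a symbol 471 were at 0.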
